A study of Danio rerio with 6 samples.

Results

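The transcripts most strongly reduced in zebrafish larvae with the mutant phenotype of the cdipt hi559 insertion were examined across 6 arrays. The set holds 35 of the 15502 probe sets compared. They were selected on the measured values: the mean of the 3 mutant arrays lay at least 1 array SD below the mean of the 3 wild type arrays, and the highest mutant array lay below the lowest wild type array. A further 22 probe sets met the same criteria but belong to transcript clusters numbered 9800 to 9899 or 11200 to 11299, and were left out by the selection rule. Of the 35 members, 29 were paired with a single gene symbol, standing for 28 genes, and 6 carried no gene name.

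The mutant group consisted of 3 pools of whole larvae sorted as mutant by phenotype, and the wild type group of 3 pools of larvae sorted as phenotypically wild type. Both came from crosses between heterozygous carriers of cdipt hi559Tg, a transgenic insertion in cdipt, and both were collected at 5 days post fertilisation (dpf), with 25 animals for each RNA preparation. Wild type here is a phenotype, so heterozygous carriers may be among those larvae, and all animals descend from carriers of 1 insertion allele. No label states that pools of the same phenotype had different parents or clutches, and p-values therefore reflect pool-to-pool spread that could be technical. Signal is given in array SDs: each array was scaled so that its median is 0 and the SD over its probe sets is 1. The size of that SD in log2 units is unknown, so no fold change can be stated. Because whole larvae were measured, fewer cells of a type and less RNA per cell cannot be told apart for any of the transcripts below.

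Phosphatidylinositol synthase, the product of cdipt, joins inositol to CDP-diacylglycerol and so makes the parent lipid of all phosphoinositides. Most named members belong instead to the photoreceptors of the eye or to the digestive tract. In a cone, light absorbed by an opsin activates the G protein transducin, which releases phosphodiesterase 6 from its inhibitory subunit. The enzyme then hydrolyses cyclic GMP and channels close. Recovery depends on guanylate cyclase, its calcium-sensing activators, recoverin and phosducin, and the whole apparatus is held in stacked membrane discs whose rims are shaped by peripherin and its relatives. The larval retina of zebrafish relies chiefly on cones, of several spectral types. In the digestive tract, enterocytes take up peptides and lipids through transporters, fatty acid-binding proteins and apolipoproteins.

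Because the choice of members used this contrast, their levels and differences are a description. By limma's moderated test with Benjamini-Hochberg adjustment, 35 of the 35 were called lower in mutants, as were 1.81% of all probe sets, and nothing is read from the count of members. With replicate number as a block, 35 members were called lower, against 2.36% of all probe sets. Mutant and wild type arrays did not overlap for any member, by the rule. Over all probe sets, every mutant array lay below every wild type array in 13.3%. The median difference of the members, mutant minus wild type, was -1.45 array SDs, with a range from -2.47 to -1.002, and the median over all probe sets was -0.00703.

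**Figure D1:**
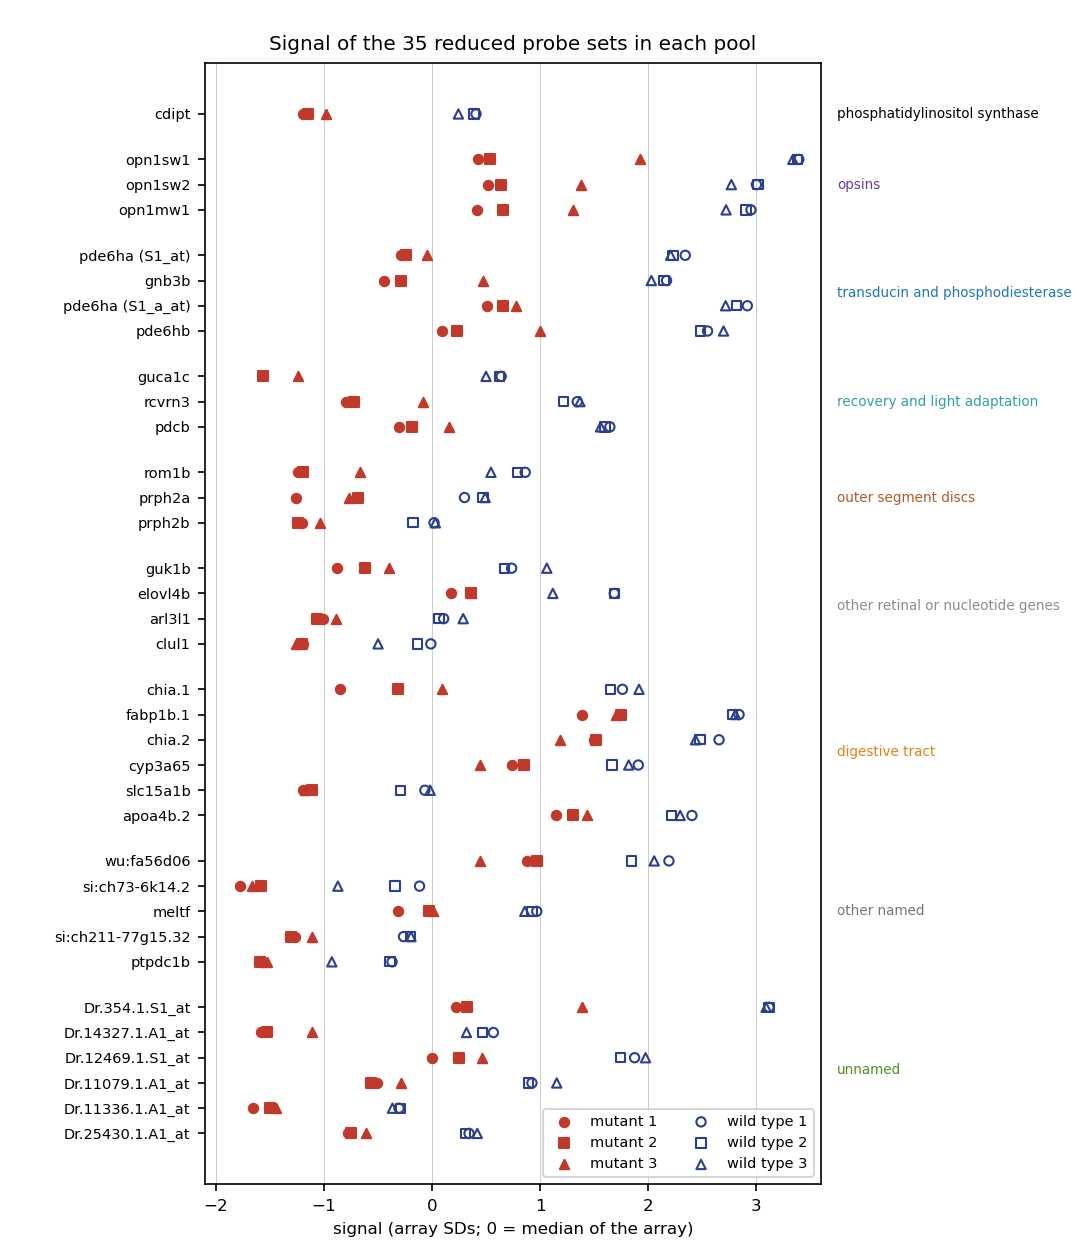
Signal of the 35 members in each of the 6 pools, in array SDs on the horizontal axis, with filled symbols for mutant and open symbols for wild type pools and symbol shape for the replicate number. Members are grouped by role, and the triangle of mutant 3 lies to the right of the other mutant pools for 27 of the 35.

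The targeted gene was itself a member. The single cdipt probe set was at -1.198, -1.151 and -0.978 in mutants 1 to 3, against 0.408, 0.388 and 0.244 in wild types 1 to 3. The groups were well apart, with a difference of -1.46 and SDs of 0.116 among mutant and 0.0891 among wild type pools (n = 3 each). Within their groups, mutant 3 was the highest and wild type 3 the lowest for this gene. Among 6 measured probe sets of phosphatidylinositol and CDP-diacylglycerol metabolism, cdipt was the only one that passed the test in either direction. The other 5, among them cds2, a CDP-diacylglycerol synthase, at a difference of 0.0409, and impa1, an inositol monophosphatase, at -0.0914, lay between -0.0914 and 0.202.

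Of the members, 13 probe sets of 12 genes encode parts of the photoreceptor's light response: 3 opsins, 4 probe sets for transducin and phosphodiesterase 6, 3 for recovery and light adaptation, and 3 for outer segment discs. Their differences ran from -2.45 to -1.12, with a median of -2.07. These roles were assigned after the values were known. Of the 13 genes on the retina marker list, 8 were measured under the listed symbols. The list, which shares 3 genes with the set, had 10 measured probe sets, and 10 of 10 were lower in mutants, against 1.81% of all probe sets. Of these 10, 9 met the selection criteria themselves, 3 as members and the others in the left-out cluster numbers, so nothing is read from this count. The 1 that did not was crx.

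The opsins are the light-absorbing proteins themselves. The ultraviolet opsin gene opn1sw1 had a signal of 0.429, 0.537 and 1.924 in mutants 1 to 3, against 3.396, 3.382 and 3.341 in wild types 1 to 3. Mutant 3 stood far above the other mutant pools, yet still well below all wild type pools, which differed from each other by little. The difference was -2.41 with all arrays and -2.91 without both arrays numbered 3. The blue opsin gene opn1sw2 was at 0.514, 0.641 and 1.379 in mutants and at 3.004, 3.019 and 2.772 in wild types, a difference of -2.09. The green opsin gene opn1mw1 was at 0.418, 0.657 and 1.309 in mutants and at 2.953, 2.906 and 2.723 in wild types, a difference of -2.07. All 3 opsins thus had the same order of mutant pools, with mutant 1 lowest and mutant 3 highest. Without the arrays numbered 3, opn1sw2 and opn1mw1 differed by -2.43 and -2.39.

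Other opsin genes were measured outside the set. The probe set of the red opsin gene opn1lw1 was at -0.795, -0.774 and -0.771 in mutants and at -0.503, -0.589 and -0.697 in wild types, a difference of -0.184 that did not pass (limma adjusted p = 0.163). A probe set of opn1mw4, another green opsin gene, differed by -0.181 (limma adjusted p = 0.148). Both had signals below the array median in wild type as well. A probe set of opn1mw2, in the left-out cluster numbers, differed by -0.415 and passed narrowly (limma adjusted p = 0.0491). Control rows of the array were not searched for opsin probe sets, so these genes may have others among them. A control row not matched to a gene differed by -1.37 and is described at the end. Whether it measures an opsin was not determined, so the small differences above need not hold for every probe set of these genes.

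Transducin and phosphodiesterase carry the signal from opsin to cyclic GMP. The inhibitory subunit of cone phosphodiesterase, pde6ha, was represented by a pair of probe sets. The first was at -0.283, -0.242 and -0.0496 in mutants, against 2.345, 2.232 and 2.210 in wild types, which placed the groups 2.26 apart at their nearest points, the widest gap of any member. The second was at 0.512, 0.660 and 0.779 in mutants and at 2.920, 2.820 and 2.719 in wild types. The differences were -2.45 and -2.17. The probe sets that share the cluster number of pde6ha but are annotated to other genes, anxa11b and rnf10, differed by 0.00638 and -0.0536.

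The paralogue pde6hb was at 0.0940, 0.229 and 1.000 in mutants, against 2.551, 2.483 and 2.699 in wild types, a difference of -2.14. The transducin beta subunit gene gnb3b was at -0.444, -0.288 and 0.475 in mutants and at 2.172, 2.147 and 2.031 in wild types, a difference of -2.20. In both, mutant 3 was more than 0.7 above the other mutant pools, whereas for pde6ha it exceeded their mean by 0.213 and 0.192. The other probe sets collected here by gene symbol as transducin subunits, 7 in number, all lay in the left-out cluster numbers. They included gnat2, the cone alpha subunit, at -2.27 and -2.39, and gnat1, the rod alpha subunit, at -1.78 and -2.02.

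Among the genes of recovery, guca1c, a guanylate cyclase activator of cones in zebrafish, was at -1.566, -1.564 and -1.237 in mutants and at 0.640, 0.623 and 0.500 in wild types. The difference was -2.04. The gene rcvrn3, of the family of recoverin, a calcium sensor that restrains opsin kinase, was at -0.792, -0.720 and -0.0873 in mutants and at 1.345, 1.220 and 1.370 in wild types, a difference of -1.84. Phosducin b, pdcb, which binds transducin beta and gamma subunits, was at -0.303, -0.188 and 0.159 in mutants, against 1.647, 1.603 and 1.561 in wild types. Its difference was -1.71. Mutant 3 was the highest mutant pool for all 3 genes, by 0.329 to 0.669 over the mean of mutants 1 and 2.

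Not every recovery gene was in the set. The retinal guanylate cyclase gene gucy2d differed by -0.707 and guca1b by -0.520, and both were called lower by limma (adjusted p = 0.000967 and 0.00342). One probe set of gucy2f differed by -0.712 (limma adjusted p = 0.000448) and another by -0.140 (limma adjusted p = 0.214). Probe sets of guca1aa and of rgs9b, a regulator that speeds transducin shut-off, differed by -0.116 and 0.0357 and did not pass. In the left-out cluster numbers, rgs9a differed by -1.61, rcvrn2 by -1.76 and pdca by -1.19 and -0.665. Outside those numbers, another rcvrn2 probe set differed by -0.165 and that of rgs9bp by -0.220, and neither passed (limma adjusted p = 0.403 and 0.139). A further pdca probe set there differed by -0.213 and passed narrowly (limma adjusted p = 0.0451).

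Disc rim proteins were represented by rom1b, prph2a and prph2b. The rom1b probe set was at -1.241, -1.194 and -0.667 in mutants and at 0.863, 0.791 and 0.546 in wild types, a difference of -1.77. For prph2a the values were -1.258, -0.682 and -0.765 in mutants and 0.301, 0.473 and 0.492 in wild types, a difference of -1.32. Here mutant 1 stood apart on the low side, while mutants 2 and 3 were close to each other. For prph2b the values were -1.202, -1.241 and -1.037 in mutants and 0.0187, -0.176 and 0.0311 in wild types, a difference of -1.12. Other probe sets of prph2b differed by -0.805, which was called, and by -0.153, which was not (limma adjusted p = 8.64e-05 and 0.243). The probe sets of this gene therefore gave unequal differences. The relative rom1a differed by -0.364 and did not pass (limma adjusted p = 0.217); its wild type 3 value of -1.136 lay among the mutant values, whereas wild types 1 and 2 were at -0.636 and -0.593.

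A further 4 members are retinal genes or enzymes of nucleotide metabolism. Guanylate kinase, guk1b, makes GDP from GMP, a step in the recycling of cyclic GMP, and was at -0.882, -0.623 and -0.400 in mutants and at 0.737, 0.673 and 1.063 in wild types. The elongase gene elovl4b, whose product builds very long fatty acids of photoreceptor membranes, was at 0.177, 0.360 and 0.365 in mutants and at 1.688, 1.691 and 1.119 in wild types. The small GTPase gene arl3l1, of a family that delivers lipidated proteins to cilia, was at -1.012, -1.067 and -0.886 in mutants and at 0.108, 0.0659 and 0.289 in wild types. Their differences were -1.46, -1.20 and -1.14. Unlike the opsins, elovl4b varied more among wild type pools, with wild type 3 at the low end, than among mutant pools. The fourth gene, clul1, is described with the members nearest the threshold.

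The digestive tract contributed 6 members. The acidic chitinase gene chia.1, of a family that breaks down chitin in food, was at -0.854, -0.314 and 0.0963 in mutants, against 1.764, 1.655 and 1.917 in wild types. Its mutant pools were spread over almost 1 array SD, and its difference of -2.14 lay within the range of those of the photoreceptor members. A second chitinase, chia.2, was at 1.496, 1.522 and 1.184 in mutants and at 2.658, 2.483 and 2.440 in wild types, a difference of -1.13. Mutant 3 was the highest mutant pool for chia.1 and the lowest for chia.2.

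The fatty acid-binding protein gene fabp1b.1 was at 1.393, 1.753 and 1.704 in mutants and at 2.843, 2.782 and 2.809 in wild types, a difference of -1.19. The apolipoprotein gene apoa4b.2, whose product travels on lipoproteins, was at 1.153, 1.301 and 1.437 in mutants and at 2.407, 2.217 and 2.298 in wild types, a difference of -1.01. A second probe set of that gene differed by -0.511. In both genes the mutant signal was still among the upper part of the array, since all their mutant values exceeded 1.

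The cytochrome P450 gene cyp3a65, an enzyme that oxidises drugs and steroids, was at 0.736, 0.848 and 0.449 in mutants and at 1.910, 1.668 and 1.821 in wild types. The difference was -1.12, and a second probe set of the gene differed by -0.835. The peptide transporter gene slc15a1b, which takes up small peptides at the brush border, was at -1.194, -1.115 and -1.172 in mutants and at -0.0661, -0.294 and -0.0170 in wild types. The 3 mutant pools agreed closely (SD 0.0406), and the difference was -1.03.

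The intestine marker list, which shares slc15a1b with the set, had 10 measured probe sets, of which 5 were lower and 0 higher in mutants; over all probe sets 1.81% were lower and 1.23% higher. Besides slc15a1b, those lower were fabp2, another fatty acid-binding protein, at -0.984, vil1, a brush border protein, at -0.774, rbp2a, a retinol-binding protein, at -0.692, and mogat2, an enzyme of triglyceride resynthesis, at -0.470. The others, such as fabp6 at -0.157, mttp at -0.340 and apoa1a at 0.104, did not pass. The mean over the 9 probe sets that are not members was 1.52, 1.70 and 1.55 in mutants and 2.02, 1.98 and 2.04 in wild types, so the pools did not overlap and mutant 3 did not stand apart.

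Of the remaining named members, wu:fa56d06, for which no function is given here, was at 0.878, 0.970 and 0.440 in mutants and at 2.194, 1.845 and 2.057 in wild types, a difference of -1.27. Another, si:ch73-6k14.2, was at -1.774, -1.587 and -1.670 in mutants and at -0.115, -0.342 and -0.872 in wild types, a difference of -1.23. Its wild type pools were spread more widely than its mutant pools, with wild type 3 lowest. Other probe sets of the same gene differed by -0.813 and -0.325. The melanotransferrin gene meltf, which encodes an iron-binding membrane protein, was at -0.317, -0.0315 and 0.00959 in mutants and at 0.970, 0.927 and 0.859 in wild types, a difference of -1.03.

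Among the 6 members without a gene name, Dr.354.1.S1_at had the most negative difference of any of the 15502 probe sets, -2.47. It was at 0.219, 0.322 and 1.388 in mutants and at 3.120, 3.119 and 3.094 in wild types. Mutant 3 stood above the other mutant pools by 1.12, and only opn1sw1 among the members had a larger excess, of 1.44. The 5 others lay between -1.66 and 0.463 in mutant pools and between -0.366 and 1.98 in wild type pools, with differences from -1.86 to -1.07. Mutant 3 was the highest mutant pool for 6 of the 6 unnamed members.

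The mutant pools were not alike across the set. Members from the same tissue can move together in a pool, so the counts below are not separate observations. Mutant 3 was the highest mutant pool for 27 of 35 members (77.1%), against 37.5% of all probe sets, and mutant 1 the lowest for 26 (74.3%), against 36.3%. Mutant 3 was the lowest for 4 members (11.4%), against 37.9% of all probe sets. In the mean of the exocrine pancreas markers, none of them members, it was the lowest mutant pool, at 2.15 against 2.44 and 2.40. Wild type 3 was likewise the lowest wild type pool in that mean, at 2.39 against 2.52 and 2.47. In the photoreceptor roles mutant 3 was highest for 12 of 13 members, with a median excess of 0.550 over the mean of mutants 1 and 2. In the digestive tract it was highest for 2 of 6 and lowest for 2 of 6, with a median excess of 0.0571. The excess ran from 0.772 to 1.44 for the opsins and from -0.344 to 0.680 for the digestive tract. The 7 retina marker probe sets outside the set had a mean of -0.603, -0.592 and -0.140 in mutants and of 1.37, 1.34 and 1.13 in wild types. Mutant 3 was highest in that mean, though not for crx or pde6a. For cdipt the excess of mutant 3 was 0.197. Whether the animals sorted into that pool differed was not tested.

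**Figure D2:**
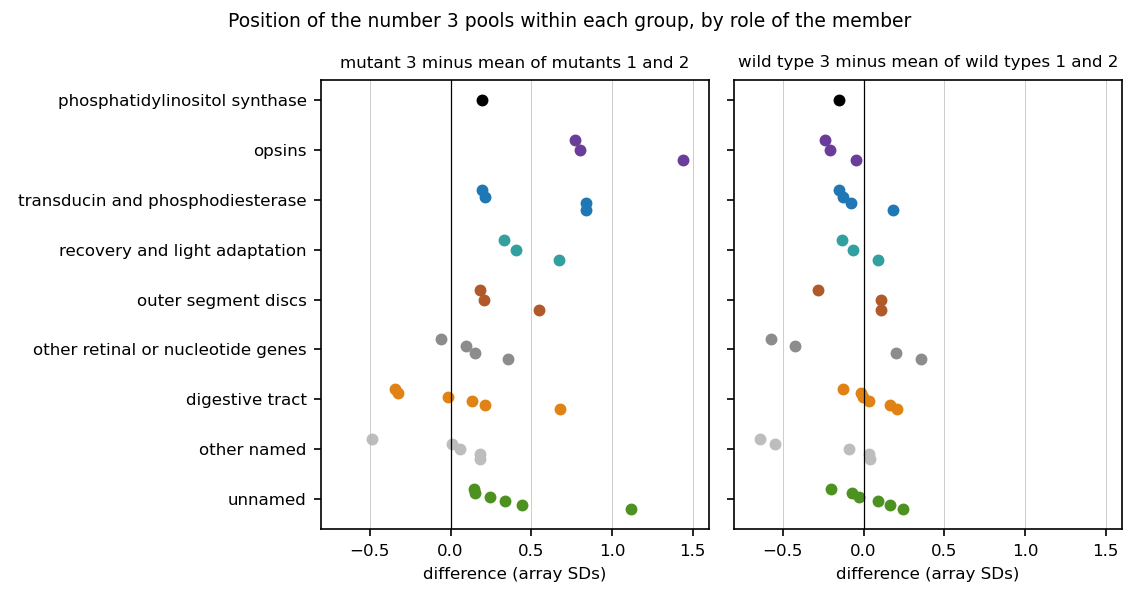
For each member, grouped by role, the left panel plots mutant 3 minus the mean of mutants 1 and 2 and the right panel wild type 3 minus the mean of wild types 1 and 2, in array SDs. Mutant 3 lies above the other mutant pools by 0.772 to 1.44 for the 3 opsins, and on both sides of 0 for the digestive tract members.

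Spread was wider in mutants for most members, whose signal level also differed between the groups. The SD among mutant pools exceeded that among wild type pools for 28 of 35 members, or 80.0%, compared with 39.5% of all probe sets. A mutant pool that stands apart also widens this SD, so the count overlaps with the order of pools above. The median SD of the members was 0.190 in mutants and 0.115 in wild types, and over all probe sets 0.0547 in mutants and 0.0719 in wild types. Wild type 3 was the lowest wild type pool for 19 members (54.3%), against 40.0% of all probe sets. It was the highest for 12 members (34.3%), against 42.5% of all. It stood lowest by a wide margin for si:ch73-6k14.2 (-0.643 against the mean of the other wild types), elovl4b (-0.571), ptpdc1b (-0.548) and clul1 (-0.426). Without both arrays numbered 3, the median difference of the members was -1.45 and the range -2.91 to -0.975. For the photoreceptor roles the median was then -2.28, and for the digestive tract -1.07.

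The rule was also applied to the 4 arrays of a pair of replicate numbers and the difference then read in the arrays of the number left out. With number 1 left out, 30 probe sets were chosen, and 30 of them differed by -1 or less between mutant 1 and wild type 1, as did 0.484% of all probe sets. With number 2 left out, 38 were chosen and 26 reached that size, against 0.355% of all. With number 3 left out, 40 were chosen and 26 reached it, against 0.381% of all. All chosen probe sets were lower in the mutant array left out, with median differences of -1.77, -1.27 and -1.22 for numbers 1, 2 and 3. Over all probe sets these medians were -0.0136, 0.00282 and -0.00986. Of the chosen probe sets, 30, 32 and 33 were members. Pools of a phenotype may share parents, so the arrays left out may not be independent, and this is a description.

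Most members had a wild type signal above the array median, 28 of 35. Wild type level is 1 side of the difference that the rule used, so this is a description. The median wild type mean of the members lay at the 90.9th percentile of the array (range 29.3 to 99.5), and 18 of 35 were above the 90th percentile. In mutants the median was at the 37.5th percentile (range 3.42 to 94.2), and 3 of 35 were above the 90th. Probe sets differ in affinity, so these are ranks of signal and not of transcript amount. The opsins had wild type percentiles of 98.8 to 99.5 and mutant percentiles of 78.2 to 79.5, so their signal in mutants was still above the median of the array. Disc proteins were at percentiles of 13.3 to 19.8 in mutants and of 48.5 to 79.1 in wild types.

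**Figure D3:**
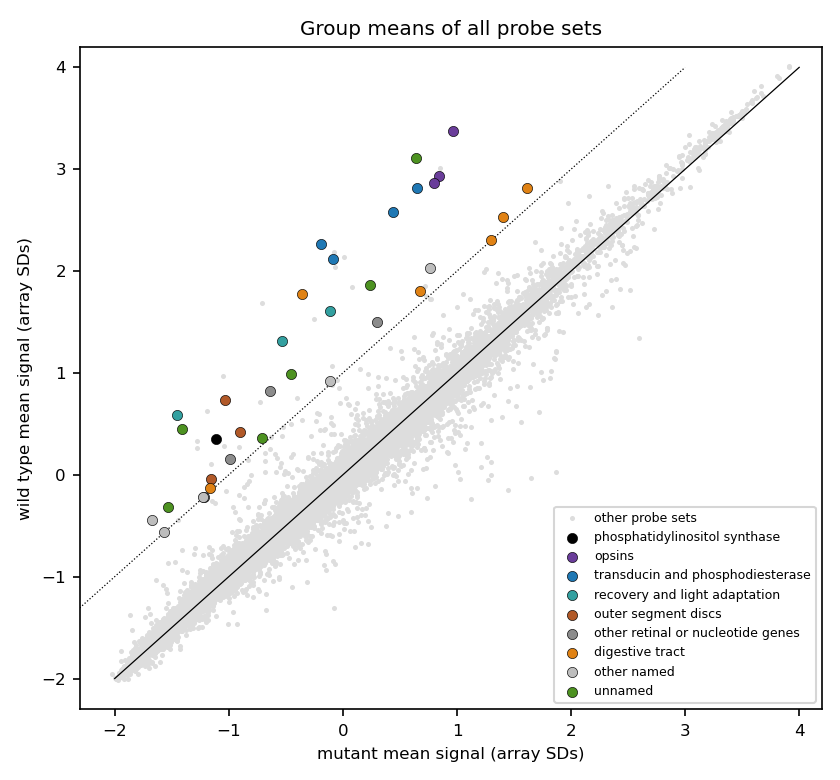
Mean signal of mutant pools (horizontal axis) and of wild type pools (vertical axis) in array SDs, with members coloured by role and all other probe sets in grey. The solid line marks equal means and the dotted line a difference of -1; grey points above the dotted line are probe sets of the left-out cluster numbers.

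Related genes outside the set were collected by symbol families of photoreceptor and digestive tract members and of the pigment epithelium. These families were chosen after the values were seen, and other named members, such as guk1b and clul1, were given none. The photoreceptor families held 45 probe sets of 35 genes, 15 of them members (the 13 above with elovl4b and arl3l1). Of all 45, 36 were lower and 0 higher in mutants by limma, against 1.81% and 1.23% of all probe sets, but 28 of the 45 met the selection criteria and had to be lower. Of the 17 that did not meet them, 8 were lower. These include a further probe set of the member gene prph2b. They also include probe sets of pdca and arl3l2, genes with another probe set that met the criteria. The left-out cluster numbers held 16 of the 45, of which 13 met the criteria. The 14 that were neither members nor left out had 5 lower and 9 that did not pass, with differences from -0.805 to 0.0357 and a median of -0.199. All 9 that did not pass had a wild type mean below the array median, between -1.73 and -0.349. Among the 5 lower, pdca, guca1b and gucy2f also had wild type means below it, at -1.16, -0.312 and -0.202. Those of gucy2d and prph2b were above it, at 0.0237 and 0.594. Visual cycle genes of the pigment epithelium, the cell layer that serves the photoreceptors, gave 0 calls among 3 probe sets without the replicate block and 2 lower with it. Those of rpe65a, the retinoid isomerase, differed by -0.317 and -0.407, with limma adjusted p of 0.359 and 0.252 without the block and of 0.0460 and 0.0117 with it. They were lower in the mutant pool of every replicate number, and number 3 was the highest pool of both groups. The probe set of rlbp1a, a retinoid carrier, differed by -0.0148 and did not pass in either fit. With the block, the call of pdca outside the left-out cluster numbers was lost (limma adjusted p = 0.0521). The homeobox gene crx, a regulator of photoreceptor genes, differed by -0.455 and was lower (limma adjusted p = 0.00540).

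The digestive tract families held 16 probe sets of 13 genes, of which 10 were lower and 0 higher. Members, selected for being lower, made up 6 of these 10. Outside the set 4 of 10 were lower, against 1.81% of all probe sets. These were chia.3 at -0.637, fabp2 at -0.984, and further probe sets of the member genes cyp3a65 and apoa4b.2, at -0.835 and -0.511. Of these, fabp2 was also counted in the intestine marker list. Other chitinase genes, chia.4 and chia.6, differed by 0.0697 and 0.198 and did not pass, so the chitinase probe sets did not change alike. Nor did those of the apolipoprotein family: apoa4b.1, of the same cluster number as apoa4b.2, differed by -0.299 and did not pass (limma adjusted p = 0.0667). The probe set of apoa4a, at -0.139, and those of fabp1a, at -0.114 and -0.152, did not pass either. Of the 6 that did not pass, 3 had a wild type mean below the array median, and the highest wild type mean among the 6 was 2.78.

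**Figure D4:**
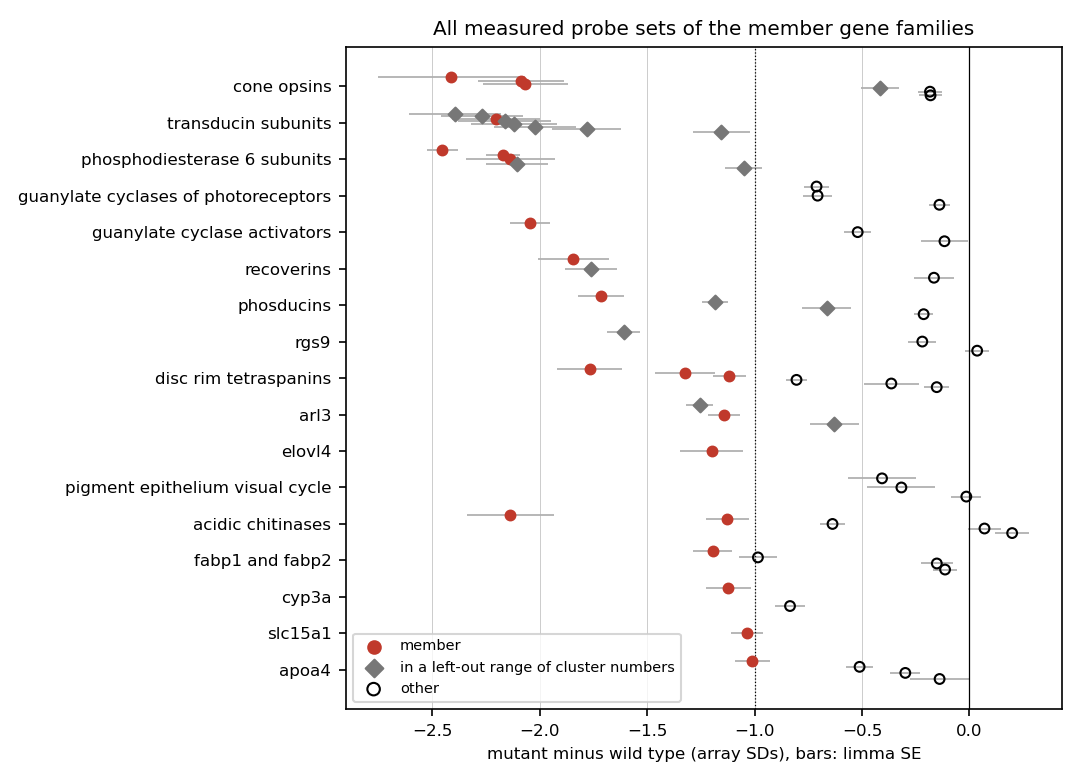
Mutant minus wild type difference (array SDs, bars show the limma SE) for every measured probe set of the photoreceptor, pigment epithelium and digestive tract families collected here. Filled circles are members, diamonds lie in the left-out cluster numbers and open circles are all others; the dotted line marks the threshold of -1.

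Marker lists of other tissues and processes held no member of the set; over all probe sets 1.81% were lower and 1.23% higher. Exocrine pancreas enzymes had 0 of 15 probe sets lower and 0 higher, muscle 0 of 9 in either direction, and liver 0 lower and 5 higher of 15. Lens crystallins had 1 of 4 lower, with a mean signal of 1.32, 1.27 and 1.21 in mutants and of 1.41, 1.41 and 1.45 in wild types. Only 4 of the 17 genes on the lens list were measured under the listed symbols. Skin and ionocyte markers had 2 lower and 1 higher of 9. Of 20 endoplasmic reticulum stress probe sets, 0 were lower and 9 higher. Sterol and fatty acid synthesis (8 probe sets), lipid droplets and fatty acid oxidation (6) and the ubiquitous genes gapdh, actb1 and eef1a1l1 (3) had 0 calls. With the replicate block, where 2.36% of all probe sets were lower and 2.33% higher, the pancreas enzymes cpa4 and cel.1 were lower as well (differences -0.319 and -0.308, limma adjusted p = 0.0102 and 0.0205). The block also added 1 higher call each for liver, for sterol and fatty acid synthesis and for lipid droplets and fatty acid oxidation.

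The last members inside the threshold and the first outside it differed by little. These were singled out after their values were seen. Just inside were si:ch211-77g15.32, annotated as a long non-coding RNA, at -1.009, ptpdc1b, a protein phosphatase domain gene, at -1.004, and clul1, a clusterin relative known from the retina of mammals, at -1.002. Just outside, with groups that did not overlap either, were kcnb2a, a potassium channel gene, at -0.998, aqp9b, a channel for water and glycerol, at -0.996, gnb5b, a G protein beta subunit, at -0.987, and fabp2 at -0.984. The clul1 probe set was at -1.192, -1.202 and -1.258 in mutants and at -0.0111, -0.135 and -0.499 in wild types. For ptpdc1b the mutants were at -1.577, -1.595 and -1.526 and the wild types at -0.370, -0.389 and -0.928, the narrowest gap between groups of any member, 0.598. For si:ch211-77g15.32 the mutants were at -1.273, -1.305 and -1.107 and the wild types at -0.263, -0.199 and -0.195.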

How the data were processed

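Total RNA was the starting material and biotin the label for 6 one-colour Affymetrix arrays, 3 per group, grouped by sample title. The deposited values are a score: per the submitters' processing notes the authors used RMA, and in the deposited table each array has a median of 0 and an SD of 1, a step not given in the sources used here. Scaling by each array's own SD can shift strong and weak probe sets between arrays. Precision is limited by the small number of arrays. Although log2 values had been planned for, limma was applied to these scores unchanged. The 115 control rows were left out. limma 3.58.1 in R 4.3.3 (lmFit and eBayes, group as only term, two-sided, Benjamini-Hochberg over 15502 probe sets, threshold 0.05) was tested on simulated data and run on all arrays; tables and plots used Python 3.11.15, pandas 2.3.3, numpy 2.4.6 and matplotlib 3.10.9.

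Gene names came from the platform annotation (10795 probe sets with 1 gene, 135 with several, 4572 not listed), updated by gene ID through RefSeq. The genes named are the 25 with the most negative differences and 1 symbol, plus members on a gene list. Members and lists were chosen with earlier results of these data known, and roles and families after the values were seen.

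Deviations of same-numbered mutant and wild type arrays from their group means correlated at 0.200, 0.166 and 0.367 for numbers 1, 2 and 3, all above the 0.1 set for treating numbers as pairs. Unlike numbers reached similar values, 0.227 for mutant 1 with wild type 2 and 0.167 for mutant 2 with wild type 1, so the correlations set only number 3 apart. The labels state no shared clutch. The report gives the blocked fit of the members beside the unblocked one. Alternatives were other array scalings, thresholds, a floor on low values, other variance estimates, the block, and leaving out arrays.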

Additional observations from a re-analysis of the deposited data

How the results depend on the processing

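The number of members depended on the threshold: 15 probe sets met a difference of -1.5 or lower and 62 a difference of -0.75 or lower. It was 36 with interquartile scaling (32 of the members kept), 31 after quantile normalizing again (31 kept), 27 with values floored at the 25th percentile (27 kept), and 31 to 40 when 1 array was left out. Leaving out both arrays of 1 replicate number gave 30 to 40. With ordinary variances in place of moderated ones, 7 of 35 members were called lower; the cause was not tested. The other fits, including the replicate block, called 35, and the filter on the dimmest 25% left 30 members, of which 30 were called. Leaving out 1 array also gave 35 each time. The median wild type level of the members was 1.31, and 1.28 to 1.36 with 1 wild type array left out. For the 25 named genes, 225 of 225 values under 9 alternatives (the block, 2 scalings and leaving out each array) kept their call and 0 reversed, but with ordinary variances 3 of the 25 were called. The rule chose groups that do not overlap, so this says little about stability. No detection call was used here, and dim probe sets may lie at background.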

Other observations

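One array control, whose name gives an mRNA accession that was not matched to a gene here, would have met the criteria of the set had control rows been included. It was at -0.0403, 0.175 and 0.393 in mutants 1 to 3 and at 1.650, 1.645 and 1.329 in wild types 1 to 3, a difference of -1.37. The groups did not overlap, with mutant 3 the highest mutant pool and wild type 3 the lowest wild type pool. Whether this control measures a gene named above was not determined.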
